A study of Mus musculus with 18 samples.

Results

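The 8 genes described here mark the dendritic cell lineage in mouse lung. Flt3, Batf3, Xcr1, Itgae, Itgax and Ccr7 are grouped here with conventional dendritic cells, and Siglech and Tcf4 with plasmacytoid dendritic cells. This grouping does not make a gene particular to its branch. They were chosen by name, 8 of the 18193 genes that could be represented, and where several probe sets name a gene and no other, the one with the greatest mean stands for it. RNA of whole lungs from 18 male mice, 16 weeks old, was hybridised to Affymetrix arrays, 1 for each mouse, with 3 mice in each of 6 groups that combine a strain, A/J or C57BL/6, with 1 of 3 treatments. All mice, the PBS groups included, had been sensitized by 3 weekly intraperitoneal injections of 100 µg ovalbumin in alum, and 7 days later breathed an aerosol for 30 min on 3 days in a row. The resiquimod groups were injected intraperitoneally with 100 µg resiquimod daily for 3 days, beginning 24 h before the first challenge, and breathed 1% ovalbumin. The ovalbumin groups breathed 1% ovalbumin without resiquimod, and the PBS groups breathed PBS. Resiquimod was given only together with ovalbumin, and the labels name neither a vehicle injection nor a substrain of C57BL/6.

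Dendritic cells take up antigen in the airway wall and present it to T cells. Conventional dendritic cells grow under the cytokine receptor Flt3 and fall into a type 1 branch, which needs the transcription factor Batf3 and in the lung carries the integrin chain Itgae (CD103) and the chemokine receptor Xcr1, and a type 2 branch marked by Itgam (CD11b) and C-type lectins. Plasmacytoid dendritic cells depend on the E protein Tcf4, carry the sialic acid-binding receptor Siglech and make interferon when their endosomal receptor Tlr7 is engaged, and resiquimod is a synthetic ligand of that receptor. In allergic lungs conventional dendritic cells are known for carrying inhaled antigen to the lymph nodes through Ccr7 and for the chemokines that draw T helper cells.

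Values are log2 RMA values (background-corrected, quantile-normalised and summarised by the authors), so a difference of 1 is a doubling in array signal. A difference was called when limma's moderated test gave an adjusted p under 0.05 after Benjamini-Hochberg adjustment over all 45037 probe sets tested. All members but Xcr1 lay above the 25th percentile of all values (3.33) on every array, while Xcr1 did so on 14 of 18 arrays, with a mean of 3.52, and Siglech exceeded the median of all values (4.78) on 1 array. Markers of lung epithelium averaged 11.85 to 12.11 on every array. Transcripts of squamous epithelium averaged 7.15 to 8.50 on 8 arrays and 3.97 to 4.56 on the other 10. In A/J the arrays with these transcripts were 1 of 3 resiquimod, 2 of 3 ovalbumin and 1 of 3 PBS arrays. In C57BL/6 they were 1 of 3 resiquimod, 1 of 3 ovalbumin and 2 of 3 PBS arrays. Most counts of members and of dendritic cell and partner genes are given with and without these 8 arrays. Counts of markers of other cells are given with all 18 arrays only. C57BL/6 ovalbumin replicate 2 differed in RNA quality measures, with a difference between 3′ and 5′ control probe sets of 0.556 for Gapdh and 0.671 for beta-actin, against -0.063 to 0.104 and 0.337 to 0.568 on the other arrays. The C57BL/6 PBS group stood apart at Nnt, the gene partly deleted in the C57BL/6J substrain, with 7.04, 7.27 and 6.90, against 8.05 to 8.52 on all other arrays. Substrain and challenge therefore cannot be told apart in the C57BL/6 comparisons with PBS, nor substrain and strain between the PBS groups. The strain difference in the ovalbumin response also holds the C57BL/6 PBS group, so substrain and strain cannot be told apart there either.

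Batf3 and Itgax rose after ovalbumin in both strains, and the stretches around their start sites are shown because these were the members called there. Both are from RefSeq on GRCm38.p6, 5′ to 3′, and run from 250 bases before to 50 bases after the annotated start. Capitals mark matches, on either strand, to AP-1 (TGANTCA), E-box (CANNTG), STAT6 (TTC and GAA with 4 bases between), interferon-response (GAAA and GAAA with 2 bases between) and PU.1 (GAGGAA) letters, and no 2 matches overlap in either stretch.
Batf3, chr1:191098164-191098463, plus strand: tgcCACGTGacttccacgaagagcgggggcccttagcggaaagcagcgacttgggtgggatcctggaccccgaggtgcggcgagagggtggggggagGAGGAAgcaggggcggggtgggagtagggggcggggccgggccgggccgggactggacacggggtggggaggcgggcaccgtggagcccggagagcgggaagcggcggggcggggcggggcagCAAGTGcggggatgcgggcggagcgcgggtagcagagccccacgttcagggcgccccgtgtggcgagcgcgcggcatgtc
Itgax, chr7:128129300-128129599, plus strand: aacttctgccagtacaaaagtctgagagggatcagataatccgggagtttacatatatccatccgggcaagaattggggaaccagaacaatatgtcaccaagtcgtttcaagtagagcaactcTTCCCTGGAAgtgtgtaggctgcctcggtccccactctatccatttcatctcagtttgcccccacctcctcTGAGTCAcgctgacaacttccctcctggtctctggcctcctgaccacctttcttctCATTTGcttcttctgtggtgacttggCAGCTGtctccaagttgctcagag
The Batf3 stretch was 75.7% G and C, against a median of 52.7% over 32851 stretches of 300 bases, and held 2 E-box matches and 1 PU.1 match. In the Itgax stretch the AP-1 letters began at position -56 and the STAT6 letters at position -127, beside 2 E-box matches at positions 1 and 27. Among all stretches 7.8% held the AP-1 letters, 7.0% the STAT6 letters, 72.3% an E-box, 28.3% the PU.1 letters and 3.4% the interferon-response letters, which neither of these held. A match describes the letters only. Stretches of Flt3, Xcr1 and Siglech were searched likewise and held 2, 1 and 3 E-box matches, and Siglech 1 PU.1 match.

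Batf3, a transcription factor that the type 1 branch needs, rose after ovalbumin in both strains. Batf3 read 6.64, 6.57 and 6.63 in A/J ovalbumin lungs, against 5.28, 4.94 and 5.30 in A/J PBS lungs. C57BL/6 ovalbumin lungs gave 6.28, 6.69 and 6.45, against 5.22, 5.21 and 5.19 in PBS lungs. Every ovalbumin array lay above every PBS array of its strain, by more than the whole spread within any group. Batf3 was 2.71-fold higher in A/J (log2 difference 1.44 ± 0.11, SE, n = 3 per group, adjusted p = 4.36e-07) and 2.4-fold higher in C57BL/6 (1.27 ± 0.11, adjusted p = 3.2e-06), and the strains' responses differed by 0.17 (95% interval -0.15 to 0.49, adjusted p = 0.963). In whole lung, more cells of a type and more RNA per cell cannot be told apart, and which cells carried the Batf3 RNA was not tested.

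Itgax encodes the integrin chain CD11c, carried by dendritic cells and also by alveolar macrophages. It read 8.92, 8.99 and 9.14 in A/J ovalbumin lungs, against 7.48, 7.77 and 7.69 in A/J PBS lungs. C57BL/6 ovalbumin lungs gave 7.95, 8.40 and 8.27, against 7.57, 7.48 and 7.50 in C57BL/6 PBS lungs. The groups did not overlap in either strain. The rise was 2.58-fold in A/J (1.37 ± 0.11, adjusted p = 1.2e-06) and 1.62-fold in C57BL/6 (0.69 ± 0.11, adjusted p = 0.00255), and the difference between these rises, 0.68 (95% interval 0.35 to 1.00), did not pass the adjusted test (adjusted p = 0.286). Beside it, the mean of 11 alveolar macrophage markers was 8.68 to 8.77 in A/J ovalbumin and 8.45 to 8.49 in A/J PBS lungs, and 7.92 to 8.28 in C57BL/6 ovalbumin and 7.98 to 8.34 in C57BL/6 PBS lungs, with 3 of 11 markers called higher in each strain. Their part in the Itgax values was not tested.

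Batf3 and Itgax were the only members called after ovalbumin, 2 of 8 in A/J where 3.15% of all probe sets were called (2.08% higher and 1.07% lower), and 2 of 8 in C57BL/6 where 1.06% were called (0.875% higher and 0.187% lower). The arrays of 6 members in A/J and 4 in C57BL/6 did not overlap between ovalbumin and PBS, as for 20.7% and 15.4% of all probe sets. Both counts were also 2 without the 8 arrays with squamous transcripts, where 0.266% of all probe sets were called in A/J and 0.313% in C57BL/6. The median difference of the 8 members was 0.23 in A/J and 0.26 in C57BL/6, against -0.01 and 0.00 over all probe sets. The remaining conventional genes had positive differences below the threshold: Flt3 0.22 and 0.39, Xcr1 0.21 and 0.15, Itgae 0.24 and 0.36 and Ccr7 0.30 and 0.05 in A/J and C57BL/6. The second probe set of Itgae gave -0.14 in A/J and 0.33 in C57BL/6, neither called, so the A/J direction of Itgae differed between its probe sets. Siglech (-0.23 and -0.14) and Tcf4 (-0.21 and -0.14) had negative differences that were not called. For Tcf4 the ovalbumin arrays all lay under the PBS arrays in both strains, and its A/J difference had an adjusted p of 0.0642, which passed without A/J ovalbumin replicate 2 (-0.25, adjusted p = 0.0383) and in 5 of 13 other alternatives (adjusted p 0.0212 to 0.858 over the 13), each giving 3 called members in A/J. These 5 were both filters on low signal, an eBayes trend, array weights and 1 probe set per gene.

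**Figure D1:**
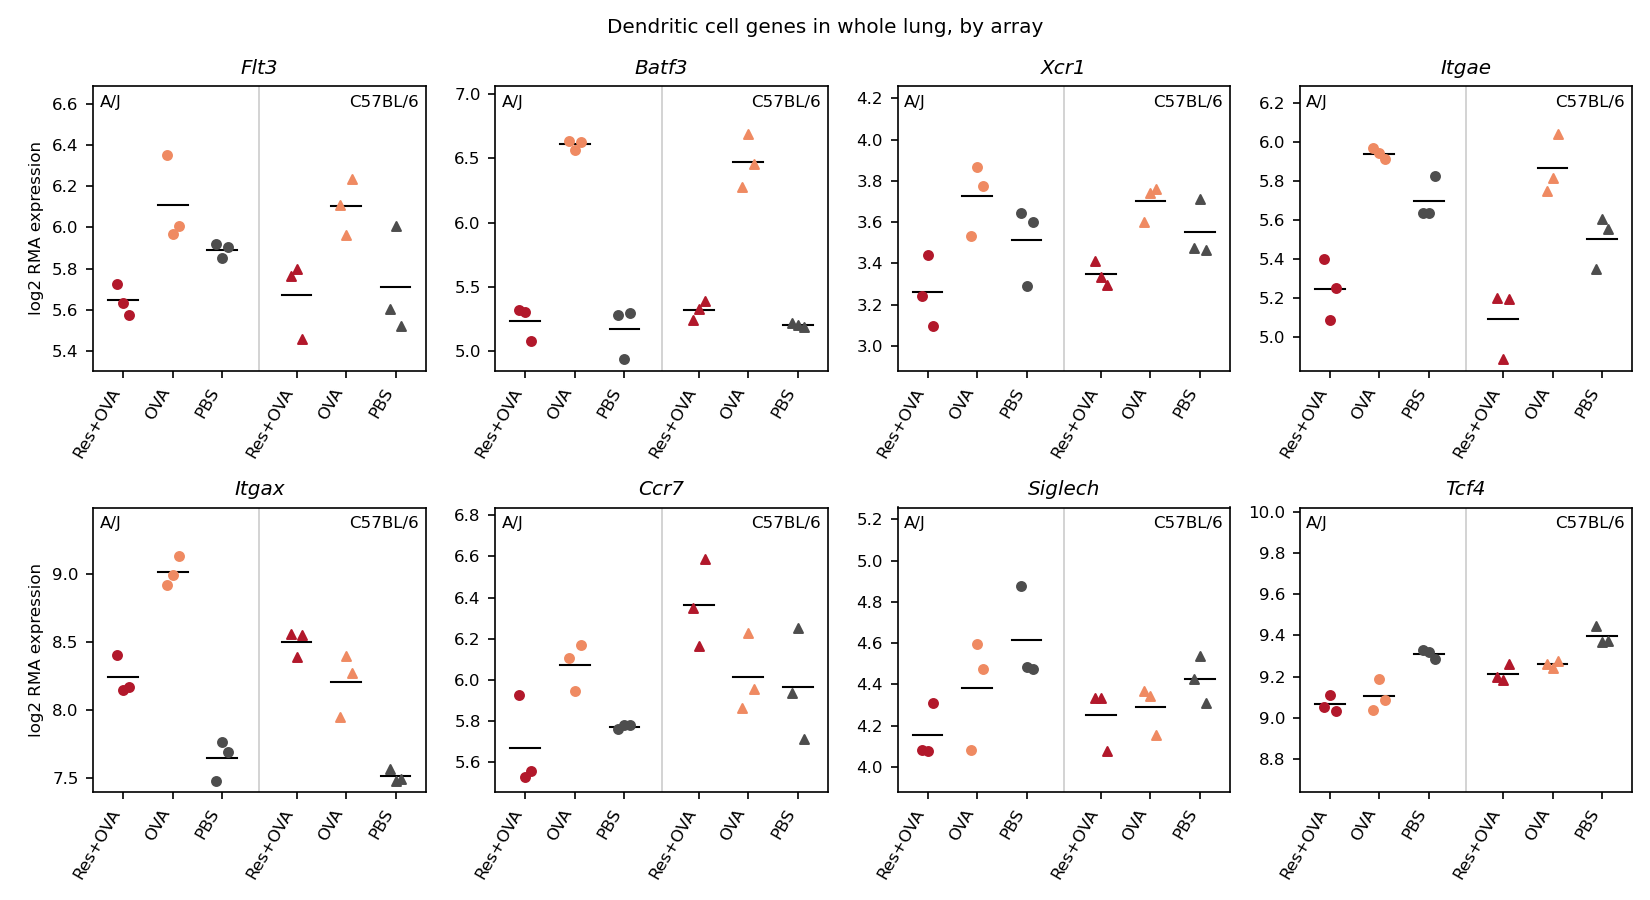
Log2 RMA expression of the 8 genes on each of 18 whole-lung arrays, by strain and treatment (resiquimod with ovalbumin, ovalbumin, PBS); points are arrays, 1 per mouse, horizontal lines are means of 3 arrays, and each panel has its own vertical range. Batf3 in ovalbumin lungs (6.28 to 6.69) stands above all other groups (4.94 to 5.39), while Itgax in C57BL/6 is at 8.39 to 8.56 with resiquimod and 7.95 to 8.40 with ovalbumin alone.

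With resiquimod on top of ovalbumin, Batf3 and Itgae were lower in both strains, and Flt3 and Xcr1 passed the test in A/J. Batf3 read 5.32, 5.31 and 5.08 in A/J resiquimod lungs and 5.25, 5.33 and 5.39 in C57BL/6 resiquimod lungs, all below every ovalbumin array given above. It was 2.6-fold lower than with ovalbumin alone in A/J (-1.38 ± 0.11, adjusted p = 4.65e-07) and 2.22-fold lower in C57BL/6 (-1.15 ± 0.11, adjusted p = 3.66e-06). Against PBS, resiquimod lungs differed by 0.06 (95% interval -0.16 to 0.28) in A/J and 0.11 (-0.11 to 0.34) in C57BL/6, neither of them called. The group means of Batf3 thus ran A/J ovalbumin 6.61, C57BL/6 ovalbumin 6.47, C57BL/6 resiquimod 5.32, A/J resiquimod 5.23, C57BL/6 PBS 5.21 and A/J PBS 5.17, with the only gap between neighbours that exceeded their spread below the C57BL/6 ovalbumin group. Without the arrays with squamous transcripts Batf3 kept its call against ovalbumin in both strains (-1.37, adjusted p = 0.0116, in A/J and -1.25, adjusted p = 0.00476, in C57BL/6).

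Itgae, the CD103 chain that pairs with Itgb7 and binds E-cadherin on epithelium, was the other member called lower in both strains. It read 5.40, 5.09 and 5.25 in A/J resiquimod lungs, against 5.97, 5.94 and 5.91 in A/J ovalbumin lungs. In C57BL/6 the values were 5.20, 4.89 and 5.20 with resiquimod, against 5.75, 5.81 and 6.04 with ovalbumin alone. No resiquimod array reached the lowest ovalbumin array. Itgae fell 1.62-fold in A/J (-0.69 ± 0.11, adjusted p = 0.000566) and 1.71-fold in C57BL/6 (-0.77 ± 0.11, adjusted p = 0.000194). A second probe set of Itgae was called lower too, by -0.52 ± 0.14 in A/J (adjusted p = 0.0314) and -1.02 ± 0.14 in C57BL/6 (adjusted p = 0.000177).

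Unlike Batf3, Itgae in resiquimod lungs lay below the PBS arrays, which read 5.64, 5.64 and 5.82 in A/J and 5.35, 5.61 and 5.56 in C57BL/6. The difference from PBS was -0.45 ± 0.11 in A/J (adjusted p = 0.013) and -0.41 ± 0.11 in C57BL/6 (adjusted p = 0.0172), and in the second probe set -0.66 and -0.69, both called. The call of the representing probe set was lost in A/J without resiquimod replicate 2 (adjusted p = 0.0704) or PBS replicate 3 (0.0742), and in C57BL/6 without resiquimod replicate 2 (0.093), PBS replicate 2 (0.0737) or PBS replicate 3 (0.0626). It was kept in A/J without the arrays with squamous transcripts (-0.56, adjusted p = 0.0388) and lost in C57BL/6 (-0.41, adjusted p = 0.187). Itgae is also carried by tissue T cells, and the mean of 10 T cell markers was 4.72 to 5.07 in A/J resiquimod, 4.96 to 5.22 in A/J ovalbumin and 4.81 to 5.04 in A/J PBS lungs. In C57BL/6 that mean was 5.26 to 5.41 with resiquimod, 4.97 to 5.05 with ovalbumin and 4.89 to 4.92 with PBS, and the part of T cells in the Itgae values was not tested.

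Flt3, the growth factor receptor of the lineage, read 5.73, 5.64 and 5.58 in A/J resiquimod, 6.35, 5.97 and 6.01 in A/J ovalbumin and 5.92, 5.85 and 5.90 in A/J PBS lungs. C57BL/6 lungs gave 5.77, 5.80 and 5.46 with resiquimod, 6.11, 5.96 and 6.23 with ovalbumin and 5.60, 6.01 and 5.52 with PBS. The resiquimod arrays lay below the ovalbumin arrays in both strains. The difference was -0.46 ± 0.13 in A/J (adjusted p = 0.0384) and -0.43 ± 0.13 in C57BL/6 (adjusted p = 0.052, not called), with no detectable difference between the strains' responses (-0.03, 95% interval -0.42 to 0.35). The A/J call was lost without any 1 of resiquimod replicates 1, 2 and 3, ovalbumin replicates 1 and 3 or PBS replicate 3 (adjusted p 0.0508 to 0.175), and without the arrays with squamous transcripts (-0.36, adjusted p = 0.382). The C57BL/6 difference was called without A/J ovalbumin replicate 1 (adjusted p = 0.0342), C57BL/6 PBS replicate 2 (0.0233) or C57BL/6 PBS replicate 3 (0.0467), and in 9 of 13 other alternatives (-0.53 to -0.43, adjusted p 0.0325 to 0.0959 over the 13), while the A/J call was lost in 4 of those 13.

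Xcr1, the receptor for the chemokine Xcl1, gave weak signal throughout. It read 3.24, 3.44 and 3.09 in A/J resiquimod, 3.53, 3.87 and 3.78 in A/J ovalbumin and 3.65, 3.29 and 3.60 in A/J PBS lungs. The C57BL/6 values were 3.41, 3.34 and 3.30 with resiquimod, 3.60, 3.74 and 3.76 with ovalbumin and 3.47, 3.71 and 3.47 with PBS. The resiquimod arrays lay below the ovalbumin arrays in both strains, close to the 25th percentile of all values, where a larger fall would be hard to see. The difference was -0.47 ± 0.11 in A/J (adjusted p = 0.0177) and -0.35 ± 0.11 in C57BL/6 (adjusted p = 0.0681, not called). Without A/J resiquimod replicate 3 or A/J ovalbumin replicate 2 or 3 the A/J adjusted p was 0.0646 to 0.0851, and it was 0.173 without the arrays with squamous transcripts. The C57BL/6 difference was called without A/J PBS replicate 2 (adjusted p = 0.0473) and in 2 of 12 other alternatives.

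Itgax was lower with resiquimod in A/J, and its response differed between the strains. A/J resiquimod lungs read 8.41, 8.15 and 8.17, against 8.92, 8.99 and 9.14 with ovalbumin alone, while C57BL/6 resiquimod lungs read 8.56, 8.39 and 8.56, against 7.95, 8.40 and 8.27 with ovalbumin alone. The A/J groups did not overlap, and the C57BL/6 groups did through ovalbumin replicate 2 alone, the array that differed in RNA quality measures. Without it the C57BL/6 difference was 0.39 (adjusted p = 0.0588, not called) and the difference between the strains' responses -1.16 (adjusted p = 0.00321). Itgax was 1.71-fold lower in A/J (-0.77 ± 0.11, adjusted p = 0.000269), and the C57BL/6 difference was 0.30 ± 0.11 (adjusted p = 0.122, not called). The strains' responses differed by -1.07 ± 0.16 (adjusted p = 0.00498), the only member called where 0.839% of all probe sets were (0.264% positive and 0.575% negative). The difference was -1.06 without the arrays with squamous transcripts, where it was not called (adjusted p = 0.116) and 6 probe sets in all were.

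Against PBS, Itgax was higher with resiquimod in both strains, 1.51-fold in A/J (0.60 ± 0.11, adjusted p = 0.00215) and 1.98-fold in C57BL/6 (0.99 ± 0.11, adjusted p = 1.2e-05). In order of group means, the A/J ovalbumin group (9.02) led, followed by C57BL/6 resiquimod (8.50), A/J resiquimod (8.24), C57BL/6 ovalbumin (8.21), A/J PBS (7.65) and C57BL/6 PBS (7.52). The 3 groups between 8.21 and 8.50 overlapped in their arrays, and so did the PBS groups. Alveolar macrophage markers averaged 8.51 to 9.07 in A/J resiquimod lungs and 8.33 to 8.51 in C57BL/6 resiquimod lungs. Of these 11 markers 1 was called higher and 2 lower with resiquimod against ovalbumin in A/J, and 4 higher in C57BL/6. The mean of 7 monocyte markers was 7.54 to 7.88 in A/J resiquimod and 6.80 to 6.94 in A/J ovalbumin lungs, and 8.10 to 8.21 in C57BL/6 resiquimod and 7.18 to 7.28 in C57BL/6 ovalbumin lungs. The mean of 7 natural killer cell markers was 6.62 to 7.02 in A/J resiquimod and 4.25 to 4.41 in A/J ovalbumin lungs, and 7.70 to 8.03 in C57BL/6 resiquimod and 4.94 to 5.06 in C57BL/6 ovalbumin lungs, with all 7 called higher in both strains. The mean of 5 eosinophil markers was 3.45 to 3.70 in A/J resiquimod and 4.11 to 4.35 in A/J ovalbumin lungs, and 3.63 to 3.90 in C57BL/6 resiquimod and 3.62 to 3.79 in C57BL/6 ovalbumin lungs. Of these 5, 3 were called higher after ovalbumin in A/J and none in C57BL/6 (limma, 2 at an unadjusted p under 0.05), 4 were lower with resiquimod against ovalbumin in A/J, and 1 was higher and 1 lower in C57BL/6. For the strain difference in that response 3 of the 5 were called, all in the direction of Itgax, and 1 of them, Siglecf, is also on the alveolar macrophage list. In every group but A/J ovalbumin, 4 of the 5 eosinophil markers had means under the 25th percentile of all values, and 1 did in A/J ovalbumin. Differences among such low signals are compressed and would be hard to see. The part of macrophages, monocytes, natural killer cells and eosinophils in the Itgax values was not tested.

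Ccr7 guides mature dendritic cells, and naive T cells, towards lymph nodes. It read 5.93, 5.53 and 5.56 in A/J resiquimod, 6.11, 5.95 and 6.17 in A/J ovalbumin and 5.76, 5.78 and 5.78 in A/J PBS lungs. In C57BL/6 it read 6.35, 6.17 and 6.59 with resiquimod, 5.86, 6.23 and 5.96 with ovalbumin and 5.94, 6.25 and 5.71 with PBS. Resiquimod arrays lay below the ovalbumin arrays in A/J and among or above them in C57BL/6. Neither difference was called (-0.40 ± 0.14, adjusted p = 0.106, in A/J and 0.35 ± 0.14, adjusted p = 0.159, in C57BL/6), nor was the difference between them (-0.75, 95% interval -1.18 to -0.33, adjusted p = 0.0936). Without A/J resiquimod replicate 1, the highest of its group, both the A/J difference (-0.53, adjusted p = 0.0403) and the difference between strains (-0.88, adjusted p = 0.0387) were called. Against PBS, Ccr7 differed by 0.40 ± 0.14 in C57BL/6 (adjusted p = 0.078), which was called without C57BL/6 PBS replicate 2 (0.54, adjusted p = 0.022) and in 2 of 13 other alternatives, and by -0.10 in A/J. Of B cell and T cell markers, 5 of 7 and 3 of 10 were called higher with resiquimod against ovalbumin in C57BL/6. In A/J none was called higher and 1 T cell marker was lower. The A/J median was 0.47 for B cell markers, with 6 of 7 positive, and -0.21 for T cell markers. The part of these cells in the Ccr7 values was not tested.

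**Figure D2:**
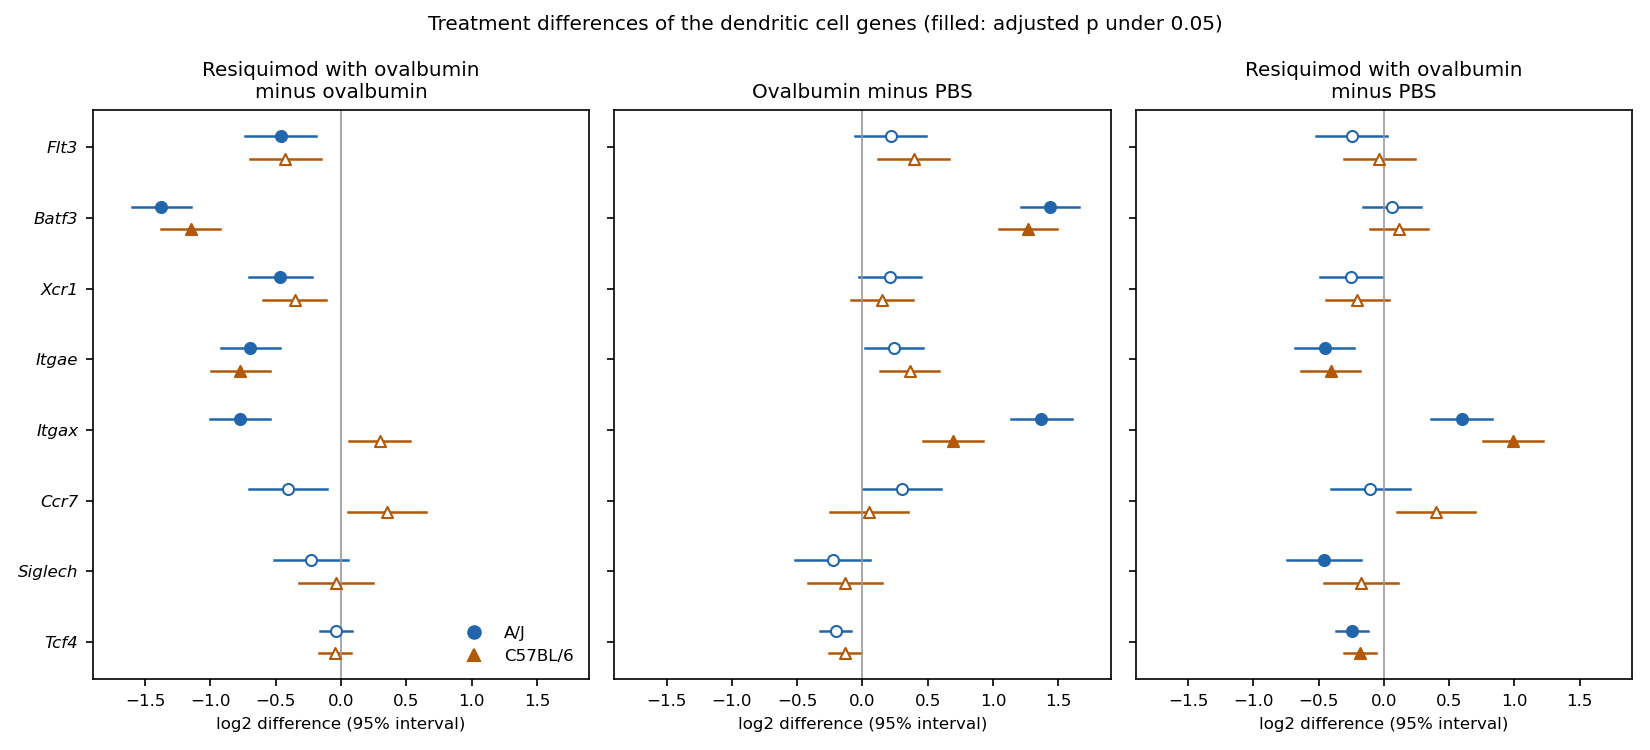
Log2 differences of the 8 genes with 95% intervals (n = 3 arrays per group), for resiquimod with ovalbumin minus ovalbumin, ovalbumin minus PBS, and resiquimod with ovalbumin minus PBS; circles are A/J, triangles C57BL/6, filled where adjusted p was under 0.05. Batf3 is at -1.38 and -1.15 in the first panel and at 1.44 and 1.27 in the second, and Itgax is at -0.77 in A/J and 0.30 in C57BL/6 in the first.

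In all, resiquimod against ovalbumin gave 5 of 8 members called lower and none higher in A/J, where 7.12% of all probe sets were called (3.37% higher and 3.75% lower), and 2 of 8 lower in C57BL/6, where 7.82% were called (4.62% higher and 3.2% lower). The arrays of 6 members in A/J and 4 in C57BL/6 did not overlap, as for 21.8% and 25.4% of all probe sets. Without the arrays with squamous transcripts the counts were 3 and 2, where 1.27% of all probe sets were called in A/J and 3.1% in C57BL/6, shares that apply to all later counts of this comparison without those arrays. Over the 13 alternatives that left out no single array the counts were 3 to 5 in A/J and 2 to 4 in C57BL/6. The median difference of the 8 members was -0.46 in A/J and -0.20 in C57BL/6, against 0.01 and -0.01 over all probe sets. The ovalbumin arrays enter both this comparison and that with PBS, so the falls of Batf3 and Itgax here and their rises there are not independent. Markers of other cells were also lower here, namely 5 of 8 fibroblast and matrix markers in A/J (1 higher, median -1.07) and 3 of 8 in C57BL/6 (median -0.56), and 4 of 5 eosinophil markers in A/J (median -0.55). In A/J resiquimod lungs 4 of those 5 eosinophil markers had means under the 25th percentile of all values. Fibroblast and matrix markers averaged 8.84 to 9.29 in A/J resiquimod and 9.66 to 10.19 in A/J ovalbumin lungs, and 9.32 to 9.60 in C57BL/6 resiquimod and 9.95 to 10.16 in C57BL/6 ovalbumin lungs. The part of these cells in the members' values was not tested.

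The plasmacytoid genes gave no call for resiquimod against ovalbumin. Siglech read 4.08, 4.08 and 4.31 in A/J resiquimod, 4.08, 4.60 and 4.47 in A/J ovalbumin and 4.88, 4.48 and 4.47 in A/J PBS lungs. In C57BL/6 it read 4.33, 4.33 and 4.08 with resiquimod, 4.37, 4.34 and 4.15 with ovalbumin and 4.43, 4.54 and 4.31 with PBS. The resiquimod and ovalbumin groups overlapped in both strains. Against PBS, Siglech was lower with resiquimod in A/J (-0.46 ± 0.13, adjusted p = 0.0459) and its C57BL/6 difference was -0.18 (95% interval -0.46 to 0.11, adjusted p = 0.484). The A/J call was lost in 13 of 18 fits that each left out 1 array (adjusted p 0.0212 to 0.205 over the 18), and held only without A/J resiquimod replicate 3, A/J ovalbumin replicate 1 or 2, C57BL/6 resiquimod replicate 3 or C57BL/6 ovalbumin replicate 3. It was also lost without the arrays with squamous transcripts (-0.29, adjusted p = 0.311).

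Tcf4 is expressed in many cell types besides plasmacytoid dendritic cells, and the mean of its probe set lay at the 95.1 percentile of all probe sets. It read 9.05, 9.11 and 9.03 in A/J resiquimod, 9.04, 9.19 and 9.08 in A/J ovalbumin and 9.33, 9.32 and 9.29 in A/J PBS lungs. In C57BL/6 it read 9.20, 9.18 and 9.26 with resiquimod, 9.26, 9.24 and 9.28 with ovalbumin and 9.45, 9.37 and 9.37 with PBS. Resiquimod and ovalbumin arrays overlapped, and both lay below the PBS arrays. The difference of resiquimod from PBS was -0.25 ± 0.06 in A/J (adjusted p = 0.0122) and -0.18 ± 0.06 in C57BL/6 (adjusted p = 0.0466).

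The 6 probe sets of Tcf4 did not give the same calls for resiquimod against PBS. In A/J 1 of the others was also called (-0.23 ± 0.06, adjusted p = 0.0341), and in C57BL/6 2 different ones were (-0.28 ± 0.07, adjusted p = 0.0123, and -0.28 ± 0.06, adjusted p = 0.00604). All 6 probe sets had negative differences in both strains, including one whose values of 2.65 to 3.03 lay among the weakest signals. The call of the representing probe set was lost in C57BL/6 in 15 of 18 fits that each left out 1 array (adjusted p 0.0401 to 0.161 over the 18) and held only without A/J resiquimod replicate 2 or A/J ovalbumin replicate 1 or 2. In A/J it was kept in all 18 but lost without the arrays with squamous transcripts (-0.23, adjusted p = 0.22), as in C57BL/6 (-0.14, adjusted p = 0.564). Beside these values, 8 endothelial markers averaged 9.81 to 10.06 in A/J resiquimod and 9.96 to 10.05 in A/J PBS lungs, and 9.95 to 10.17 in C57BL/6 resiquimod and 9.77 to 9.91 in C57BL/6 PBS lungs. Their part in the Tcf4 values was not tested.

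**Figure D3:**
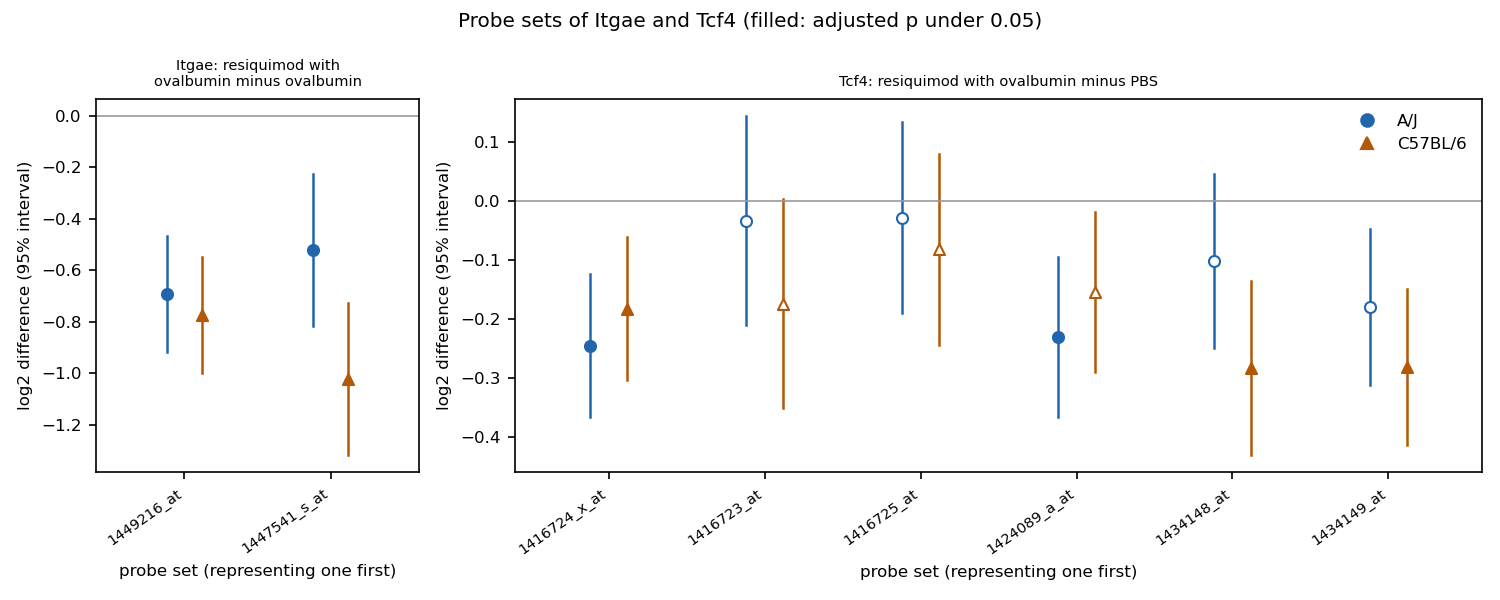
Log2 differences with 95% intervals (n = 3 arrays per group) for each probe set of Itgae (resiquimod with ovalbumin minus ovalbumin) and Tcf4 (resiquimod with ovalbumin minus PBS); circles are A/J, triangles C57BL/6, filled where adjusted p was under 0.05. Both Itgae probe sets are called in both strains, while among the 6 Tcf4 probe sets 2 are called in A/J and 3 in C57BL/6.

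Resiquimod against PBS gave 4 of 8 members called in A/J, where 8.07% of all probe sets were called, namely Itgax higher (4.1% of all) and Itgae, Siglech and Tcf4 lower (3.98%). In C57BL/6 3 of 8 were called, where 12.4% of all were, namely Itgax higher (7.09%) and Itgae and Tcf4 lower (5.32%). The counts were 2 and 1 without the arrays with squamous transcripts, where 3.31% and 3.02% of all probe sets were called. The arrays of 5 members did not overlap between resiquimod and PBS in each strain, and 25.6% and 30.2% of all probe sets did not overlap there.

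Between the strains, no member was called in the PBS groups (limma, 0 also at an unadjusted p under 0.05), where 8.54% of all probe sets were (4.11% higher and 4.43% lower in A/J). In the ovalbumin groups Itgax alone was called, higher in A/J by 0.81 ± 0.11 (1.75-fold, adjusted p = 8.48e-05), where 8.85% of all probe sets were called (4.07% higher and 4.78% lower). In the resiquimod groups Ccr7 alone was called, lower in A/J by 0.70 on the log2 scale (-0.70 ± 0.14, adjusted p = 0.00252), where 14% of all probe sets were called (6.55% higher and 7.48% lower). The arrays of 2 members did not overlap between the strains in each treatment, as for 25.5% of all probe sets with PBS, 23.1% with ovalbumin and 28.8% with resiquimod. Both calls were kept in all 18 fits that left out 1 array and without the arrays with squamous transcripts (Itgax 0.66, adjusted p = 0.0159, and Ccr7 -0.92, adjusted p = 0.00225). The shares of all probe sets called without those arrays were 2.99% with ovalbumin and 8.95% with resiquimod. That setting also called Itgax lower in A/J among the resiquimod groups (-0.40, adjusted p = 0.0279), against -0.26 (adjusted p = 0.146) with all arrays. The second probe set of Itgae was called lower in A/J among the ovalbumin groups (-0.48, adjusted p = 0.0396), where the representing one gave 0.07, and 1 of the other Tcf4 probe sets was called lower in A/J among the PBS groups (-0.26, adjusted p = 0.0279).

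No member was called for a strain difference in the ovalbumin response, where 0.0466% of all probe sets were (0.0311% positive and 0.0155% negative, limma). At an unadjusted p under 0.05 this held Itgax (unadjusted p = 0.000468) and no other member.

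The other genes of the lineage were followed in lists of known markers. Of 11 measured type 1 genes, ovalbumin against PBS called 2 higher and none lower in each strain, Naaa (0.53 in A/J and 0.59 in C57BL/6), a lysosomal amidase, and Wdfy4 (0.44 and 0.59), which serves cross-presentation. Resiquimod against ovalbumin called 4 lower in A/J (Naaa -0.53, Wdfy4 -0.52, the adhesion molecule Cadm1 -0.47 and the lysosomal thioesterase Ppt1 -0.33). In C57BL/6 4 were lower, among them Naaa (-0.61), Gcsam (-0.52) and Cadm1 (-0.39), and 1 was higher, Irf8 (0.52 ± 0.13), the factor that works with Batf3. Naaa read 7.94, 7.81 and 7.80 in A/J resiquimod lungs and 8.31, 8.37 and 8.45 in A/J ovalbumin lungs, which did not overlap. Without the arrays with squamous transcripts 1 and 3 of these genes were called lower with resiquimod, and none after ovalbumin in either strain (limma, 4 in A/J and 2 in C57BL/6 at an unadjusted p under 0.05).

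Type 2 genes changed in both directions with resiquimod. Mgl2, a C-type lectin shared with alternatively activated macrophages, read 5.28, 4.91 and 4.82 in A/J resiquimod, 8.28, 8.16 and 8.22 in A/J ovalbumin and 6.87, 6.42 and 6.35 in A/J PBS lungs. In C57BL/6 Mgl2 read 3.84, 4.20 and 4.38 with resiquimod, 7.61, 7.91 and 7.75 with ovalbumin and 6.21, 5.99 and 5.99 with PBS. The 3 groups were apart from each other in both strains, with resiquimod lowest. Of 12 measured genes, resiquimod against ovalbumin called 4 lower in A/J and the same 4 in C57BL/6: Mgl2 (-3.22 and -3.62), the lectin Cd209a (-3.05 and -2.59), the T cell chemokine Ccl17 (-2.31 and -2.69) and the lectin Clec10a (-1.34 and -1.45). Itgam, the CD11b chain that monocytes, neutrophils and natural killer cells also carry, was higher by 1.25 and 2.01, and 1 more gene was called higher in A/J and 2 more in C57BL/6. These counts lay beside list medians of -0.03 and 0.01, and 0.01 and -0.01 over all probe sets. After ovalbumin 6 of 12 were higher in A/J, led by Ccl17 (2.50), Mgl2 (1.67), Clec10a (1.37) and Irf4 (1.33), and 2 in C57BL/6, Ccl17 (2.08) and Mgl2 (1.69). Without the arrays with squamous transcripts 2 were higher after ovalbumin in each strain, and 4 lower and 1 higher with resiquimod against ovalbumin in each strain.

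Among 8 genes shared by conventional dendritic cells, Zbtb46, the factor that marks the lineage, was not called for resiquimod against ovalbumin (-0.07 in A/J and 0.19 in C57BL/6). The class II genes H2-Eb1 (-0.76), H2-Aa (-0.68) and H2-Ab1 (-0.56) and the invariant chain Cd74 (-0.35) were lower in A/J, while no gene of this list was called in C57BL/6 (limma, with the median at -0.45 in A/J and -0.01 in C57BL/6). None of the 8 genes was called for a strain difference in that response (limma, 4 at an unadjusted p under 0.05), and 2 passed an unadjusted p under 0.05 in C57BL/6. The mean of the 8 genes was 8.815, 8.847 and 8.330 in A/J resiquimod and 9.067 to 9.154 in A/J ovalbumin lungs, with resiquimod replicate 3 lowest. Class II genes are also carried by B cells and macrophages. B cell markers averaged 7.108, 7.032 and 6.440 on the same resiquimod arrays, and 5.822 to 6.959 in A/J ovalbumin lungs. The part of B cells and macrophages in the class II values was not tested. Without the arrays with squamous transcripts 1 gene was lower in A/J.

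Of 13 measured genes of mature and migratory dendritic cells, ovalbumin called 5 higher in A/J, led by Ccl22 (1.40), Cd83 (0.91), Cd86 (0.79) and Fscn1 (0.75), and 3 in C57BL/6 (Ccl22 0.53, Cd86 0.40 and Cd40 0.34). Resiquimod against ovalbumin called 5 lower in A/J, led by Ccl22 (-1.54), a chemokine for Ccr4-bearing T cells, and 2 lower and 3 higher in C57BL/6 (among them Ccl22 -1.23, against Samsn1 1.47, Fscn1 0.70 and Cd274 0.69). Fscn1, the actin bundler of dendritic cell protrusions, read 7.99, 7.97 and 7.72 in A/J resiquimod and 8.40, 8.10 and 8.31 in A/J ovalbumin lungs. C57BL/6 lungs gave 8.82, 8.87 and 9.10 with resiquimod and 8.16, 8.41 and 8.11 with ovalbumin. All 3 C57BL/6 resiquimod arrays lay above, and all 3 A/J resiquimod arrays below, the ovalbumin arrays of their strain, and the strains' responses differed by -1.08 ± 0.18 (adjusted p = 0.00871), a call that was lost without the arrays with squamous transcripts. Without those arrays 1 gene of the list was called after ovalbumin in A/J and none in C57BL/6 (limma, 4 at an unadjusted p under 0.05), and 1 in A/J and 2 in C57BL/6 with resiquimod against ovalbumin.

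Plasmacytoid genes other than the members were higher or not called. Of 15 measured, ovalbumin called none in either strain (limma, 3 in A/J and 1 in C57BL/6 at an unadjusted p under 0.05), and resiquimod against ovalbumin called 3 higher in A/J and 7 in C57BL/6, with medians of 0.09 and 0.49. Irf7, the interferon regulator of plasmacytoid cells that many cells induce under interferon, read 7.27, 7.27 and 7.16 in A/J resiquimod and 6.28, 5.94 and 5.90 in A/J ovalbumin lungs, without overlap, and rose by 1.19 in A/J and 1.10 in C57BL/6. The oxidase subunit Cybb (1.14 and 1.28) and Tlr7, the receptor for resiquimod (0.67 and 1.08), were called in both strains, and Spib (1.08) and 3 more genes in C57BL/6. Siglech and Tcf4, given above, were called in neither. Of the 15, 2 in A/J and 6 in C57BL/6 were higher without the arrays with squamous transcripts. B cells carry Spib and myeloid cells Cybb. B cell markers averaged 6.44 to 7.11 in A/J resiquimod and 5.82 to 6.96 in A/J ovalbumin lungs. In C57BL/6 they averaged 7.53 to 7.76 with resiquimod and 6.26 to 6.58 with ovalbumin. Monocyte markers averaged 7.54 to 7.88 in A/J resiquimod and 6.80 to 6.94 in A/J ovalbumin lungs. In C57BL/6 they averaged 8.10 to 8.21 with resiquimod and 7.18 to 7.28 with ovalbumin, and 4 of 7 were called higher in each strain. The part of B cells and monocytes in the values of this list was not tested.

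**Figure D4:**
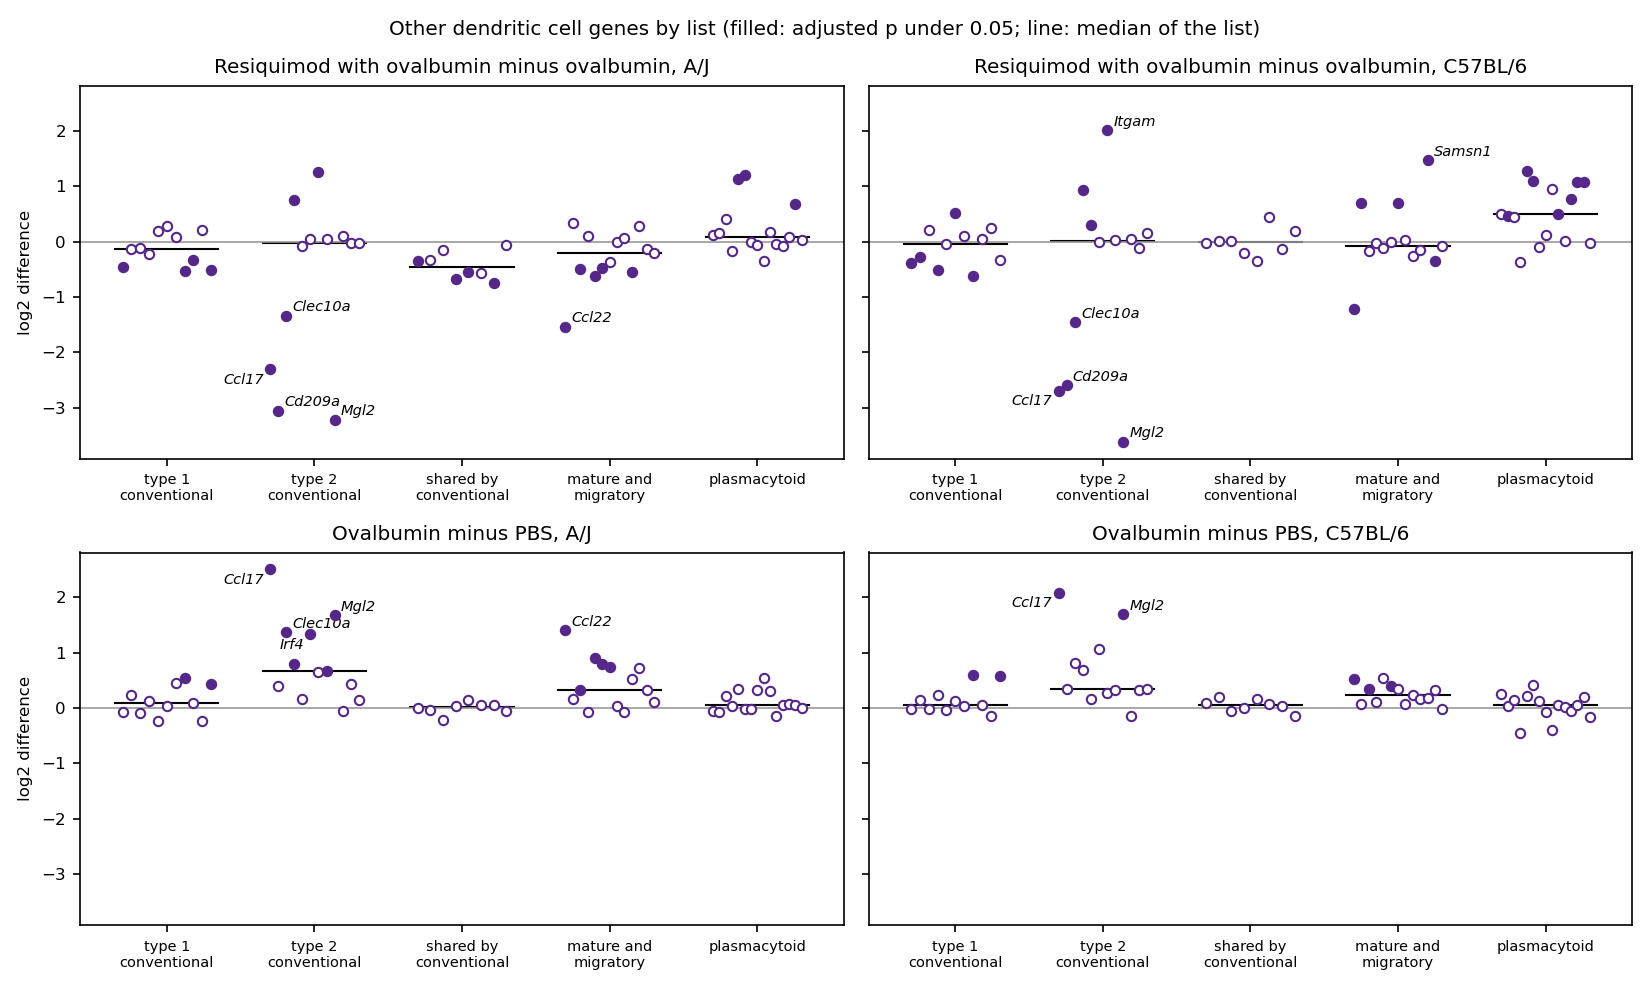
Log2 differences of other dendritic cell genes by list, for resiquimod with ovalbumin minus ovalbumin (upper row) and ovalbumin minus PBS (lower row) in A/J and C57BL/6; each circle is 1 gene (n = 3 arrays per group), filled where adjusted p was under 0.05, and lines are list medians. Mgl2, Cd209a, Clec10a and Ccl17 of the type 2 list lie between -1.34 and -3.62 in the upper row. The other genes of that list are higher or not called there, and called plasmacytoid genes lie above 0.

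Ligands and partners of the members were measured for 15 of 18 genes, and resiquimod against ovalbumin called 2 higher and none lower in A/J, and 6 higher and 1 lower in C57BL/6 (medians 0.19 and 0.12). Itgb7, with which Itgae forms its heterodimer, read 7.90, 7.85 and 7.98 in C57BL/6 resiquimod and 7.05, 7.05 and 6.94 in C57BL/6 ovalbumin lungs. It was higher by 0.90 ± 0.12 (adjusted p = 0.000161), while Itgae was lower. The A/J difference of Itgb7 was 0.36 (adjusted p = 0.0884, not called). In the C57BL/6 comparison 5 of 7 B cell, 3 of 10 T cell and 7 of 7 natural killer cell markers were also called higher. The part of these cells in the Itgb7 values was not tested. Itgb2, the partner of Itgax and Itgam, was higher by 0.49 in A/J and 1.26 in C57BL/6, and Tyrobp, the adaptor of Siglech, by 0.67 and 1.08. Itgb2 and Tyrobp are carried by most myeloid and natural killer cells. Cdh1, the E-cadherin that Itgae binds, was lower in C57BL/6 (-0.36) and not called in A/J (-0.11). Xcl1, the ligand of Xcr1, was at 2.88 to 3.44 on all arrays, among the weakest signals, and was not called. Batf, the relative of Batf3, differed by 0.22 in A/J, not called, and was higher by 0.52 in C57BL/6, and the E protein Tcf3 was higher in C57BL/6 (0.38). Irf8, given above, was the sixth called higher there. The other 7, Id2, Jun, Junb, Batf2, Tcf12, Csf2 and Cbfa2t3, were called in neither strain (-0.15 to 0.79). No gene of this list was called in A/J (limma, 3 at an unadjusted p under 0.05), and 4 in C57BL/6, without the arrays with squamous transcripts.

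Across the 18 arrays Flt3, Batf3, Xcr1 and Itgae had pairwise Pearson r of 0.64 to 0.75, and of -0.04 to 0.53 once each group's mean was removed. Itgax and Batf3 had r = 0.65 over all arrays, and Siglech and Batf3 r = -0.09. These points share their groups, so the values describe how the treatments arranged the arrays. Among 11150 genes with a mean above the median of all values, those with the highest r to Batf3 were Chil4 (0.979), Fcgbp (0.973) and Naaa (0.970), and to Itgae Mgl2 (0.924), Bok (0.916) and Septin3 (0.904). Itgax was followed most closely by Galnt6 (0.942), Galnt12 (0.937) and Ptger4 (0.916), and Tcf4 by Rgs2 (0.927), Zfp267 (0.909) and Egflam (0.908). The nearest genes were less close for Xcr1 (Spats2l 0.860), Ccr7 (Ncstn 0.848), Flt3 (Naprt 0.807) and Siglech (Dync1li2 0.776).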

How the data were processed

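RNA of whole lung from 18 mice was hybridised to Affymetrix mouse arrays, 1 array per mouse, and groups were taken from the labels. The deposited log2 values were made by the authors with RMA (affy), per the submitters' processing notes, whose versions are not given in the sources used here. Log2 values are background-corrected, quantile-normalised and summarised per probe set, so very low signals are compressed and the number of arrays limits precision. No array was left out of the fit, which used limma 3.58.1 in R 4.3.3 with 6 group means, eBayes and Benjamini-Hochberg adjustment over 45037 probe sets (64 control probe sets were left out). In all 11 contrasts were tested and called at an adjusted p under 0.05. Of these probe sets 34945 name 1 gene, 932 several and 9160 none, and only the first were used to name genes. The moderated tests are two-sided and assume separate mice, as the labels' biological replicates state. The members and gene lists were chosen with earlier results of these data known. All members are named, with their other probe sets where these disagree, and so are the measured ligands and partners. From each further list up to 4 genes with the largest called changes per comparison are named, with 3 genes of highest correlation for each member. Replicate numbers were not used as pairs. The alternatives were another scaling, low-signal filters, fits on fewer groups or arrays, covariates, a replicate block and other ways of combining probe sets. Motifs and sequences came from RefSeq on GRCm38.p6, which held a stretch for 5 of 8 members, and were searched on both strands. List counts without the arrays with squamous transcripts were added after seeing the data. The fit was tested on simulated data.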

Additional observations from a re-analysis of the deposited data

Results flagged for a closer look

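Differences between the strains' responses were called for 1 member and 5 related genes, and none of the 6 was called without the arrays with squamous transcripts (limma, adjusted p 0.116 for Itgax, 0.315 for Fscn1, 0.368 for Itgb2, 0.503 for Rnase6, 0.418 for Ppt1 and 0.609 for Ccl22). In that fit 6 probe sets in all were called for the resiquimod response and 3 for the ovalbumin response. Itgax differed in its response to resiquimod by -1.07 (adjusted p = 0.00498), and the call was kept in all 18 fits that left out 1 array (-1.16 to -0.94).

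Fscn1 differed by -1.08 in the same response (adjusted p = 0.00871), also kept in all 18 such fits. Itgb2, the partner chain of Itgax, differed by -0.76 (adjusted p = 0.028) and was lost in 8 of the 18 fits. It read 10.48, 10.30 and 9.99 in A/J resiquimod and 9.83, 9.56 and 9.89 in A/J ovalbumin lungs, and 10.84, 10.66 and 10.65 in C57BL/6 resiquimod and 9.46, 9.47 and 9.44 in C57BL/6 ovalbumin lungs, so resiquimod arrays lay higher in both strains.

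Rnase6, a ribonuclease listed with the plasmacytoid genes, differed by -0.85 (adjusted p = 0.0482, lost in 15 of 18 fits). It read 4.40, 4.37 and 3.90 in A/J resiquimod and 4.52, 4.00 and 4.39 in A/J ovalbumin lungs, which overlapped, and 5.36, 5.45 and 5.42 in C57BL/6 resiquimod and 4.64, 4.60 and 4.68 in C57BL/6 ovalbumin lungs, which did not. Ppt1 differed by -0.37 (adjusted p = 0.0387, lost in 14 of 18 fits), with -0.33 in A/J and 0.04, not called, in C57BL/6.

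Ccl22 differed in its response to ovalbumin by 0.87 (adjusted p = 0.0422, lost in 15 of 18 fits). It read 6.50, 6.66 and 6.89 in A/J ovalbumin and 5.33, 5.25 and 5.27 in A/J PBS lungs, and 6.16, 6.58 and 6.41 in C57BL/6 ovalbumin and 5.92, 5.89 and 5.75 in C57BL/6 PBS lungs. Ovalbumin arrays lay above PBS arrays in both strains. The C57BL/6 PBS group, which stood apart at Nnt, enters this difference, so substrain and strain cannot be told apart in it.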

How the results depend on the processing

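The 88 member results were refitted under 13 alternatives and 18 fits that each left out 1 array. Of 2706 values 2614 kept their side of the threshold, 63 lost a call and 29 gained one, and no called member value reversed. The calls of Batf3 and Itgax after ovalbumin, of Batf3 and Itgae for resiquimod against ovalbumin and of Itgax for resiquimod against PBS were kept in both strains under all of these, as were the strain calls of Itgax with ovalbumin and of Ccr7 with resiquimod.

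For resiquimod against ovalbumin in A/J, 5 members were called, 3 when only the groups compared were fitted, 3 without the arrays with squamous transcripts and 3 to 5 without 1 array, and in C57BL/6 2 were called and 4 after a shift to the 75th percentile, with 2 to 3 without 1 array. For resiquimod against PBS, A/J gave 4 calls, 2 with only the groups compared, 2 without the squamous arrays and 2 to 4 without 1 array, and C57BL/6 gave 3, 1, 1 and 1 to 3 in the same order. Between strains with resiquimod 1 member was called, and 2 with only probe sets above the median, 2 with an eBayes trend and 2 without the squamous arrays. The strain difference in the resiquimod response went to 0 called members without the squamous arrays (2 at an unadjusted p under 0.05, limma) and 1 to 2 without 1 array, 2 being without A/J resiquimod replicate 1. Klk1, a plasmacytoid gene not called between strains with ovalbumin (-0.09), gave 0.26 when probe sets were averaged, with the cause not tested. Same-numbered arrays of different groups had correlations of deviations from -0.628 to 0.609 (median 0.180, over 0.1 in 27 of 45 pairs), and 7 of 18 arrays correlated best with their own number. The median was 0.263 for number 1, 0.304 for number 2 and -0.091 for number 3. Squamous transcripts were on 5 of 6 arrays numbered 1, 1 of 6 numbered 2 and 2 of 6 numbered 3. Pairs of arrays with different numbers were not summarised beside these, so whether same-numbered arrays share part of their deviation was not tested. The labels tie the numbers to no litter or day. With the replicate number as a block, counts of called members were 2, 2, 5, 2, 3 and 2 over the 6 treatment comparisons, Siglech in A/J and Tcf4 in C57BL/6 losing their calls against PBS.

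Xcr1 was above the 25th percentile of all values on 14 of 18 arrays, and lower signals are compressed. The 3 mice per group limit the precision of all comparisons, and the arrays with squamous transcripts are unevenly spread over the groups. Substrain and challenge cannot be told apart for C57BL/6 against PBS, nor substrain and strain for the strain difference in the ovalbumin response.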

Other observations

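Resiquimod was also set against PBS in the other dendritic cell lists, with the C57BL/6 PBS group standing apart at Nnt. Of all probe sets 8.07% were called in A/J and 12.4% in C57BL/6, and 3.31% and 3.02% without the arrays with squamous transcripts. Of 15 other plasmacytoid genes 5 were called higher in A/J and 9 in C57BL/6, and none lower (3 higher, and 3 higher with 1 lower, without the arrays with squamous transcripts). Of 12 type 2 genes 4 were higher and 2 lower in A/J, and 5 higher and 2 lower in C57BL/6. Without the arrays with squamous transcripts 4 were higher and 2 lower in A/J, and 3 higher and 2 lower in C57BL/6. Of 11 type 1 genes 1 was higher and 2 were lower in each strain. Without those arrays 1 was lower in A/J and none was called in C57BL/6 (limma, 2 at an unadjusted p under 0.05). Of 8 genes shared by conventional dendritic cells none was higher, and 4 were lower in A/J and none in C57BL/6 (limma, 1 at an unadjusted p under 0.05). Without the arrays with squamous transcripts 2 of these 8 were lower in A/J. Of 13 mature and migratory genes 3 were higher in A/J, and 4 higher and 1 lower in C57BL/6. Without those arrays none was called in A/J (limma, 3 at an unadjusted p under 0.05), and 2 were higher and 1 lower in C57BL/6.

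Cd209a, a lectin of monocyte-derived and type 2 dendritic cells, read 4.59, 3.93 and 4.43 in A/J resiquimod lungs, against 7.37, 7.33 and 7.41 in A/J ovalbumin and 7.46, 6.83 and 6.63 in A/J PBS lungs. In C57BL/6 it read 4.22, 3.52 and 3.98 with resiquimod, 6.37, 6.45 and 6.68 with ovalbumin and 6.39, 5.89 and 6.20 with PBS. Resiquimod arrays lay below all others of their strain. Irf8, on which type 1 and plasmacytoid cells depend, read 9.25, 9.30 and 9.50 in C57BL/6 resiquimod lungs, against 8.78, 8.85 and 8.86 in C57BL/6 ovalbumin lungs, above every array of that group while Batf3 lay below. In this comparison 5 of 7 B cell markers (median 1.37) and 4 of 7 monocyte markers (median 0.30) were also called higher. The part of these cells in the Irf8 values was not tested.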
